A study of Mus musculus with 23 samples.

Results

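CC080F1 is an F1 host line of the genotype C57BL/6J x CC080/TauUncJ, and 3 of the 23 MC38 tumors of the series were grown in it. These 3 tumors, 2 given isotype control antibody and 1 given aPD1, were chosen by host genotype in the labels. They were compared with the 8 tumors of hosts C57BL/6J x CC036/UncJ (CC036F1) and C57BL/6J x CC079/TauUncJ (CC079F1), each with 2 isotype and 2 aPD1 tumors. The study's text counts all 3 lines as non-responder (NR) lines, meaning that MC38 tumors in them did not respond to PD-1 blockade. Each host was a female of 8 to 12 weeks that received MC38 cells under the skin. At a tumor size of 75 to 110 mm3, 1 intraperitoneal dose of 200 µg of isotype (clone 2A3) or aPD1 (clone 29F.1A12) was given, and the tumor was taken 48 h later. The cell line and the C57BL/6J parent were shared by all 11 tumors, of which 6 were given isotype and 5 aPD1.

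The Collaborative Cross is a panel of recombinant inbred mouse lines bred from founder strains of diverse origin, so its lines differ at many genes, including those of the major histocompatibility complex (MHC) and of the natural killer (NK) receptor clusters. MC38 is a colon carcinoma cell line of C57BL/6 origin, which F1 hosts with a C57BL/6J parent can carry. The cancer cells are then the same in every line, and the host supplies the immune cells, vessels and connective tissue. PD-1 is an inhibitory receptor of T cells, and antibodies that block it can release T cell activity against a tumor.

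RNA was measured in bulk tumor tissue by poly(A) sequencing. The values are expected counts per gene, and the levels below are normalized counts, that is counts divided by the DESeq2 size factor of each library, which can be compared between tumors for 1 gene but not between genes. The CC080F1 libraries held 65776443 (isotype replicate 1), 15276128 (isotype replicate 2) and 39305203 (aPD1 replicate 1) counts, and the other 8 held 16765492 to 63474809. Isotype replicate 2 was thus the shallowest of the 11 libraries. In a bulk sample, fewer cells of a type and less RNA per cell cannot be told apart. The labels name the samples biological replicates, and the sources used here do not say how many cages or litters they came from. Because all 3 tumors share 1 line, the line and anything else they have in common cannot be told apart in these data. A difference from the other 8 can also rest on single tumors or on 1 of the other lines.

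The first question was which genes set the CC080F1 tumors apart. With antibody as a term, 195 of 18777 genes (1.04%) passed a DESeq2 adjusted p of 0.05, which is the call used below. Of these, 147 were higher (0.783% of the genes tested) and 48 lower (0.256%) in CC080F1. The median log2 difference was 0.97 among the higher genes and -0.68 among the lower genes, against -0.003 over all genes tested. At least a log2 difference of 1 was reached by 71 of the higher and 18 of the lower genes. The counts of the 3 CC080F1 tumors lay outside the range of the other 8 for 149 of the 195 genes. The same held for 529 of all genes tested (2.82%). Of the 195 genes, 37 were predicted genes or pseudogenes. With edgeR's quasi-likelihood test 64 genes were called (0.261% of 24552), of which 57 were among the 195. Without 1 of the CC080F1 tumors, 125 (isotype replicate 1), 125 (isotype replicate 2) or 90 (aPD1 replicate 1) genes were called. In the 7 deeper libraries, of 37242363 counts or more, 118 genes were called.

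Set against 1 line at a time, CC080F1 gave different numbers of calls. Against CC036F1 alone 1460 of 17888 genes were called (8.16%), 890 higher (4.98%) and 570 lower (3.19%). Against CC079F1 alone 200 of 24552 genes were called (0.815%), 137 higher (0.558%) and 63 lower (0.257%). Both contrasts use the same 3 CC080F1 tumors. In the same fit 1175 genes were called between CC079F1 and CC036F1, so CC036F1 also differed from CC079F1. Of the 195 genes, 190 were also called against CC036F1 and 99 against CC079F1, and 96 were called in the same direction against both lines.

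The rule for named genes took calls whose values did not overlap between the groups, so the separation of the 24 genes it named was fixed by that choice and is given as a description. Among the larger changes were genes of monocytes and macrophages. Ccr2, the receptor for the chemokine Ccl2 that brings monocytes into tissue, had 4249, 4184 and 3273 normalized counts in isotype replicates 1 and 2 and aPD1 replicate 1. The other 8 tumors had 1166 to 2037, with a median of 1648. All 3 CC080F1 tumors stood above all others, and the log2 difference was 1.23 ± 0.15 (SE; DESeq2 adjusted p = 2.14e-12, edgeR 0.000209). Clec4a2, an inhibitory C-type lectin of myeloid cells, had 676, 659 and 448 normalized counts against 174 to 310 (median 273). The groups did not overlap, and the log2 difference was 1.14 ± 0.19 (DESeq2 adjusted p = 1.19e-06). Klra2, a Ly49 family receptor found on myeloid cells, had 1921, 1271 and 1144 against 241 to 793 (median 478). Its lowest CC080F1 value was above the highest of the others, with a log2 difference of 1.61 ± 0.37 (DESeq2 adjusted p = 0.0031). Without isotype replicate 1 the Klra2 difference was 1.29 and was not called. The Ly49 genes form a family of related sequence, and whether Klra2 shares reads with other members was not tested. Its level may thus be less certain than its error.

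Cfb encodes complement factor B, the protease of the alternative complement pathway, and lies in the MHC region of chromosome 17. Its normalized counts were 4084, 3584 and 3328 in the CC080F1 tumors and 878 to 1792 (median 1126) in the other 8. The 3 values lay above every other tumor, and the log2 difference was 1.71 ± 0.18 (DESeq2 adjusted p = 1.01e-18, edgeR 3.58e-05). Slfn4, a Schlafen gene induced by interferon in myeloid cells, had 1078, 813 and 1070 normalized counts against 244 to 516 (median 330). It too did not overlap, with a log2 difference of 1.43 ± 0.20 (DESeq2 adjusted p = 2.16e-09). Nlrp1b, an inflammasome sensor, had 482, 244 and 354 against 93.3 to 221 (median 158). All 3 were above the others, with isotype replicate 2 only just so, and the log2 difference was 1.23 ± 0.26 (DESeq2 adjusted p = 0.000897). It fell to 0.93 and was not called without isotype replicate 1. The neighboring Nlrp1c-ps, a pseudogene named here after its values were seen, was also higher (1.82 ± 0.34, DESeq2 adjusted p = 4.05e-05), and reads shared between the copies may be split between them.

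The rule for named genes also brought up Qpct, Lyve1 and Atp2a1. Qpct, the glutaminyl cyclase, had 171, 210 and 171 normalized counts against 56.6 to 114 (median 84.1), with a log2 difference of 1.16 ± 0.23 (DESeq2 adjusted p = 0.000206). Lyve1, a hyaluronan receptor of lymphatic vessels and some macrophages, had 301, 160 and 390 against 11 to 157 (median 76.4). Isotype replicate 2 was barely above the highest other tumor. The log2 difference of Lyve1 was 2.11 ± 0.47 (DESeq2 adjusted p = 0.00174, edgeR 0.0649). The Lyve1 call was lost when any of the 3 CC080F1 tumors, CC036F1 aPD1 replicate 1, CC079F1 isotype replicate 2 or CC079F1 aPD1 replicate 2 was left out, with differences of 1.86 to 2.30. Atp2a1, the calcium pump of fast skeletal muscle, had 39.6, 1634 and 44.7 against 1.57 to 24.9 (median 11.1). Here isotype replicate 2 stood far above all other tumors. The log2 difference of 5.10 ± 1.11 (DESeq2 adjusted p = 0.00123) was 1.97 and was not called without isotype replicate 2.

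**Figure D1:**
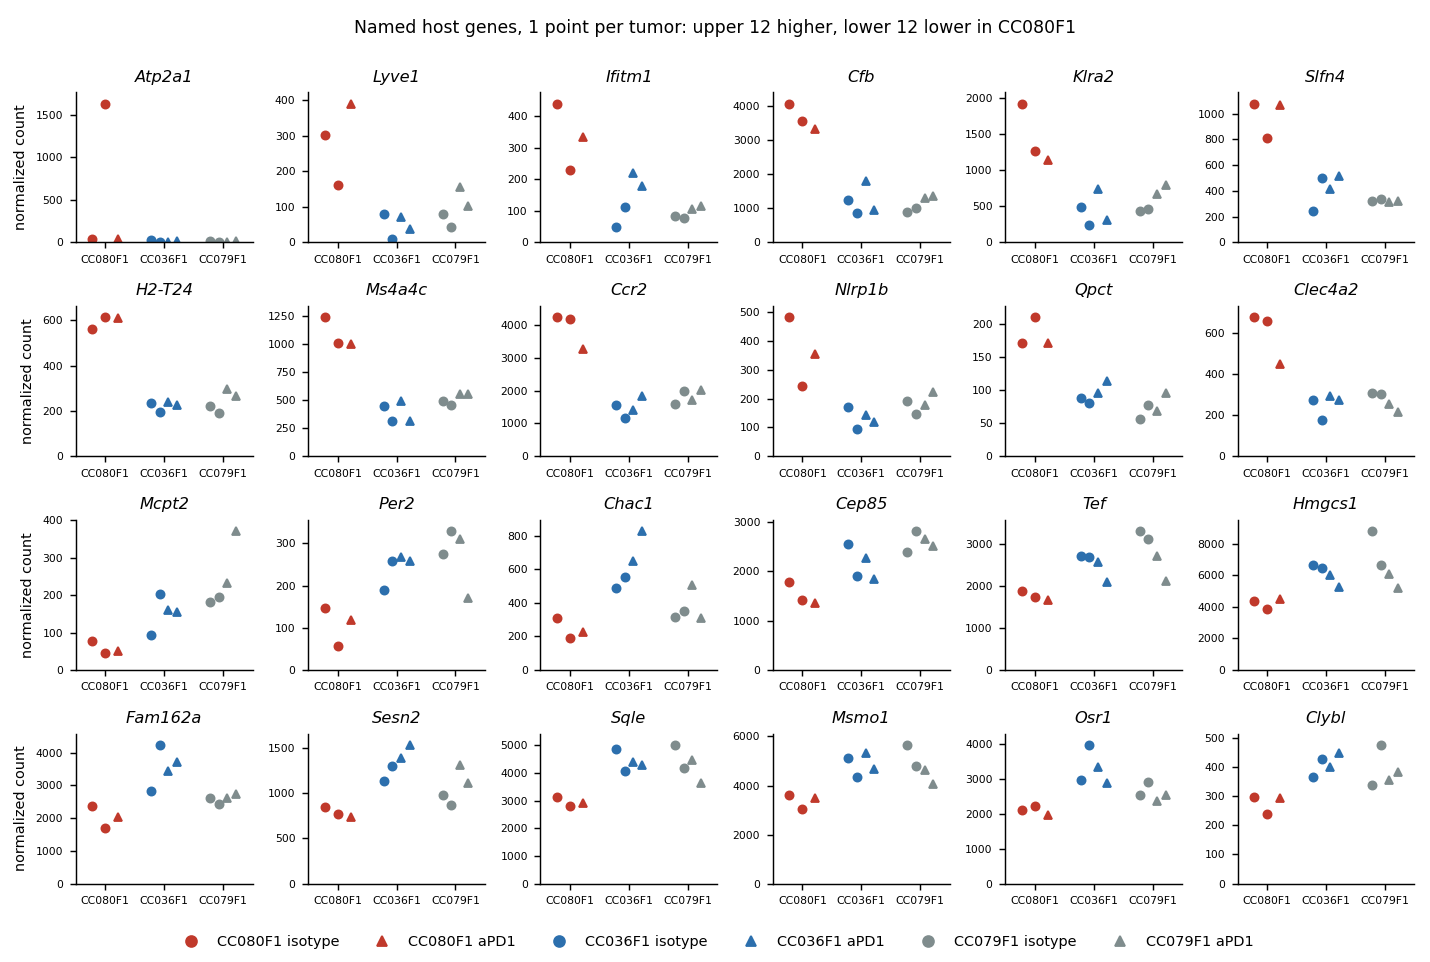
Normalized counts (linear axis from 0, 1 panel per gene) of the 24 genes named by the rule, with 1 point per tumor: circles are isotype and triangles aPD1 tumors, red CC080F1, blue CC036F1 and grey CC079F1. The 3 red points lie above all 8 others in the upper 12 panels and below all 8 others in the lower 12, as the rule that chose the genes required, and in the Atp2a1 panel isotype replicate 2, at 1634, sets the scale.

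The genes lower in CC080F1 had smaller differences. Mcpt2, a protease of mucosal mast cells, had 77.8, 45.1 and 51.3 normalized counts against 92.1 to 372 (median 189). All 3 values were below the lowest of the others, and the log2 difference was -1.67 ± 0.33 (DESeq2 adjusted p = 0.000191, edgeR 0.0729). Without aPD1 replicate 1 it was -1.41 and was not called. None of the 8 tested genes of the mast cell and eosinophil list was called. Cep85, a centrosome gene, had 1778, 1429 and 1349 against 1842 to 2822 (median 2451), with a log2 difference of -0.66 ± 0.14 (DESeq2 adjusted p = 0.000617). The Cep85 call was lost without aPD1 replicate 1, at -0.59. Osr1, a zinc finger transcription factor, had 2110, 2223 and 1965 against 2371 to 3971 (median 2897), and its difference was -0.51 ± 0.13 (DESeq2 adjusted p = 0.017, edgeR 0.157). Leaving out any of the 3 CC080F1 tumors ended the Osr1 call, at -0.49 to -0.53.

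Fam162a, a mitochondrial gene that responds to low oxygen, differed by -0.59 ± 0.17 (DESeq2 adjusted p = 0.0431, edgeR 0.266). Its normalized counts were 2372, 1688 and 2033 in CC080F1, 2826 to 4237 in CC036F1 and 2424 to 2721 in CC079F1. The gap was thus wide against CC036F1 (log2 difference -0.80) and narrow against CC079F1 (-0.34, DESeq2 adjusted p = 0.525). Its call was lost without CC080F1 isotype replicate 2, CC080F1 aPD1 replicate 1, CC036F1 isotype replicate 1, CC036F1 isotype replicate 2 or CC036F1 aPD1 replicate 1, at -0.46 to -0.61. Clybl, the mitochondrial citramalyl-CoA lyase, had 298, 239 and 292 against 337 to 477 (median 390), and its difference was -0.51 ± 0.14 (DESeq2 adjusted p = 0.0414). The Clybl call was kept only when CC079F1 isotype replicate 1 or CC079F1 aPD1 replicate 1 was the tumor left out, and the other 9 fits gave -0.43 to -0.58.

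Next, genes were sought that were on in CC080F1 tumors and off in the others, or the reverse. On was set at 30 or more normalized counts in every tumor of one group and off at 5 or fewer in every tumor of the other. The rule found 2 genes on in CC080F1 (0.00815% of 24552 genes) and none off. Gm6768, a processed pseudogene on chromosome 12 (GRCm38 chr12:119260978-119262855), had 265, 108 and 393 normalized counts against 0 to 4.42. Gm8909, an MHC class I-like gene on chromosome 17 (chr17:36164443-36168537), had 76.4, 85.8 and 46.4 against 0 to 1.57. In both, most of the other 8 tumors were at 0. At 50 or more against 3 or fewer, no gene met the rule.

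Several pseudogenes and multicopy genes came close to this pattern, and the following were named after their values were seen. Gm9800, a processed pseudogene on chromosome 14 (chr14:8800000-8800335), had 22.7, 0 and 24.8 normalized counts in CC080F1 and 2693 to 5478 in the others. Rbpj-ps3, a processed pseudogene on chromosome 6 (chr6:46529354-46530794), had 272, 808 and 382 against 0 to 19.5. Gm6472, a transcribed processed pseudogene on the X chromosome (chrX:152909505-152910155), had 965, 957 and 983 against 15.4 to 67.6. Compared with every one of the 8 tumors, Gm9800 was lower in CC080F1, and Rbpj-ps3 and Gm6472 were higher. Gm4737 had 686, 758 and 478 against 0 to 11, and the replication-dependent histone gene Hist1h2ao had 303, 176 and 192 against 0 to 9.14. Leaving out any CC080F1 tumor ended the Gm4737 call, at log2 differences of 7.45 to 8.00, and leaving out any of them or CC036F1 aPD1 replicate 1 ended the Hist1h2ao call, at 6.11 to 6.66. BC023719 (an antisense transcript at the MHC) and Gm21451 were at 0 counts in all 3 CC080F1 tumors. Against a floor of 3 counts over the 3 libraries their mean level was at least 23.3-fold and at least 20.04-fold lower in CC080F1. Genes of this kind share sequence with a parent gene or with other copies, and their reads were assigned by estimation, so these levels are less certain than those of unique genes.

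Calls also sat next to each other on chromosomes. Runs of 3 or more genes called in the same direction, with starts at most 500 kb apart, numbered 5, and each run was higher in CC080F1. With starts at most 250 kb apart 4 runs were found and the second run described here was lost, and at 1 Mb 6 were found. The first lies at chr19:11404770-11531256 (GRCm38) and holds Ms4a4c, Ms4a4b, Ms4a6c and Ms4a6b, members of a family of membrane proteins of myeloid and lymphoid cells. Of the 6 tested genes in this span 4 were called, all 6 had positive differences, and their median log2 difference was 0.98. Ms4a4c had 1238, 1009 and 999 normalized counts against 310 to 558 (median 473), with no overlap and a log2 difference of 1.28 ± 0.18 (DESeq2 adjusted p = 5.04e-09). Ms4a6b and Ms4a6c did not overlap either, at 0.72 ± 0.18 and 0.68 ± 0.19. Ms4a4b, which T cells express, had 341, 149 and 358 against 80.0 to 207, so isotype replicate 2 lay within the range of the others. Leaving out any CC080F1 tumor ended the calls of Ms4a6b (0.66 to 0.78) and Ms4a6c (0.63 to 0.80), and the Ms4a6c call also ended without CC036F1 isotype replicate 1, CC036F1 aPD1 replicate 1 or CC079F1 isotype replicate 2 (0.68 to 0.71). The Ms4a4b call ended without isotype replicate 1 (0.91) or aPD1 replicate 1 (1.24).

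The second run, at chr7:140954837-141466613, holds Ifitm2, Ifitm1, Irf7 and Cracr2b among 26 tested genes. Irf7, the transcription factor that amplifies type I interferon, had 1845, 1979 and 1825 normalized counts against 1044 to 1395 (median 1163). The CC080F1 tumors formed a tight set above all others, with a log2 difference of 0.67 ± 0.10 (DESeq2 adjusted p = 1.1e-07, edgeR 0.00161). Ifitm1, an interferon-induced membrane protein, had 439, 228 and 334 against 49.9 to 220 (median 108). Its isotype replicate 2 was just above CC036F1 aPD1 replicate 1, and the log2 difference was 1.71 ± 0.31 (DESeq2 adjusted p = 1.88e-05). Ifitm2 was higher by 0.39 ± 0.08. The change did not take in the whole stretch: the median over the span was 0.04, and Ifitm3 between them was at 0.09 ± 0.09 and was not called.

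The third run lies in the MHC at chr17:36005695-36168537 and holds the nonclassical class I genes H2-T24, H2-T23 and Gm8909. H2-T24 had 561, 614 and 609 normalized counts against 189 to 297 (median 231). The 3 tumors were close together and well above the rest, with a log2 difference of 1.39 ± 0.13 (DESeq2 adjusted p = 4.05e-22, edgeR 2.82e-05). H2-T23, which encodes Qa-1, the ligand of the NKG2A receptor, had 2348, 1368 and 1964 against 858 to 1691. Isotype replicate 2 lay within the others, and the log2 difference was 0.65 ± 0.18 (DESeq2 adjusted p = 0.0343). This call ended without CC080F1 isotype replicate 1 (0.41) or aPD1 replicate 1 (0.72), and without CC036F1 isotype replicate 1, CC079F1 isotype replicate 1 or CC079F1 isotype replicate 2 (0.58 to 0.65). In the same span H2-T-ps (-1.53 ± 0.37) and BC023719 were lower, and H2-T22 (-0.04 ± 0.13) and H2-T10 (-0.36 ± 0.16) were not called. Of the 15 tested genes there, 9 had positive differences. Class I genes are similar in sequence and vary between founder haplotypes, and BC023719 overlaps H2-T10, so reads of these genes may be split or exchanged.

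The fourth run, at chr6:128780285-129008040 in the NK gene complex, holds Gm44511, Clec2i and BC064078 among 11 tested genes with a median log2 difference of 1.99. Clec2i, a C-type lectin-related ligand of NK receptors, had 144, 76.7 and 196 normalized counts against 0 to 60.1 (median 22.6). All 3 values were above the others, and the log2 difference was 2.85 ± 0.51 (DESeq2 adjusted p = 1.45e-05). Clec2g, beside it, had 44, 29.3 and 24 against 0 to 14 and was not called (DESeq2 adjusted p = 0.148). The fifth run, at chr7:106417848-106604035, holds 3 pseudogenes, Gm4759, Gm8995 and Gm1966, and no other tested gene. Gm4759 had 519, 291 and 622 against 42.3 to 148, and Gm1966 had 1034, 695 and 1026 against 166 to 382. The log2 differences of the 3 pseudogenes were 2.61 ± 0.29, 0.66 ± 0.10 and 1.80 ± 0.22. With edgeR's calls the run of Gm4759, Gm8995 and Gm1966 was found whole and the second run in part, with Ifitm2, Ifitm1 and Irf7.

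**Figure D2:**
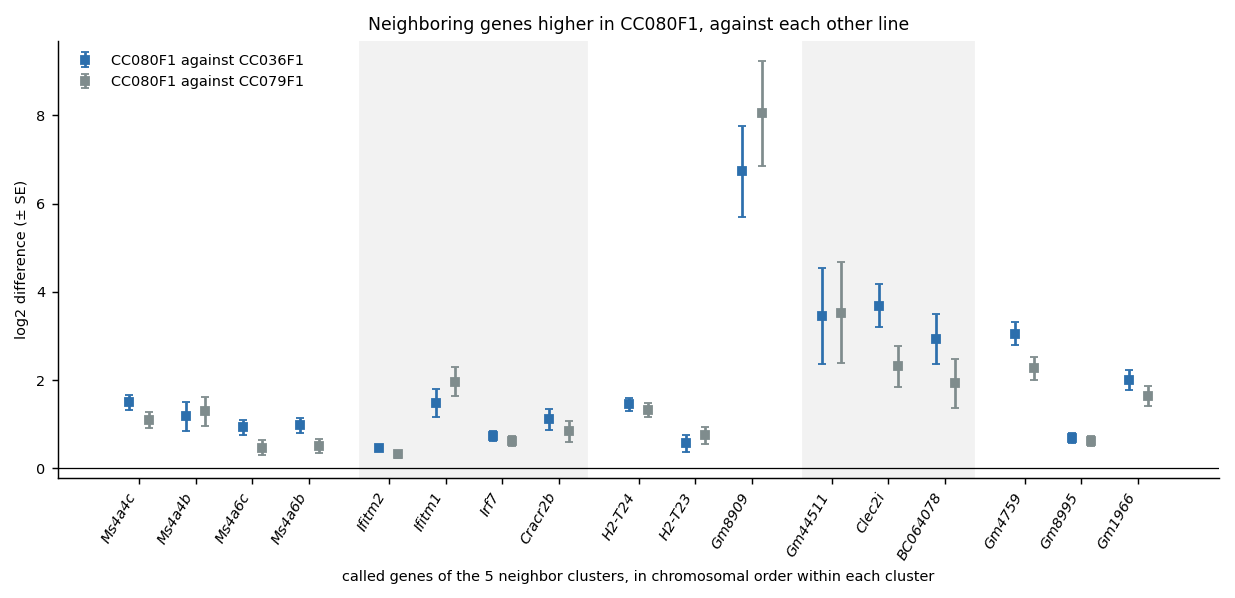
Log2 difference (vertical axis, points ± SE) of CC080F1 from CC036F1 (blue) and from CC079F1 (grey) for the 17 called genes of the 5 neighbor runs, which are separated by shading, from 1 DESeq2 fit with line as a term. All points are above 0 and both contrasts share the 3 CC080F1 tumors; the MHC class I-like Gm8909 lies highest, at 6.73 against CC036F1 and 8.05 against CC079F1.

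To describe the immune makeup, 32 marker lists of cell types and programs were read in the same fit. Of their 302 tested genes 11 were called, all of them higher in CC080F1, beside 0.783% of all genes tested. Of the 11, 2 were skeletal muscle genes (Atp2a1 and Ckm), whose calls were lost without CC080F1 isotype replicate 2. At least 1 call fell in 10 lists, and the median difference was positive in 26 lists. The macrophage and monocyte list had positive differences for all 14 genes with a median of 0.29, but only Ccr2 was called. Its summed normalized counts were 112868, 131169 and 115677 in CC080F1 and 64677 to 107739 in the others. The 3 CC080F1 sums were above the other 8. The macrophage state list had 1 call of 12, Folr2, a folate receptor of tissue macrophages, with 420, 587 and 577 normalized counts against 227 to 418. The log2 difference of Folr2 was 0.73 ± 0.20 (DESeq2 adjusted p = 0.0328), with isotype replicate 1 barely above the highest of the others. Its call ended without CC080F1 isotype replicate 2, CC080F1 aPD1 replicate 1, CC036F1 isotype replicate 2, CC036F1 aPD1 replicate 1 or CC079F1 isotype replicate 2, at 0.63 to 0.71.

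Conventional type 1 dendritic cells (cDC1) present tumor antigen to CD8 T cells. All 8 genes of their list had positive differences, with a median of 0.40. The summed normalized counts were 5523, 5448 and 6148 against 3611 to 4716, without overlap. Irf8, the transcription factor that directs this lineage, was the single call. It had 1724, 1542 and 1521 normalized counts against 915 to 1292 (median 1035). The log2 difference was 0.62 ± 0.11 (DESeq2 adjusted p = 5.48e-06, edgeR 0.006), and no tumor left out ended the call. Against CC036F1 alone 4 genes of the list were called higher, beside 4.98% of all genes, and against CC079F1 alone 1, beside 0.558%. Beyond the lists, 3 genes of leukocytes named after their values were seen were also called: Ptprc, the common leukocyte antigen CD45 (0.61 ± 0.16), Siglec1, a sialic acid receptor of macrophages (0.64 ± 0.10), and Ctss, a protease of antigen-presenting cells (0.58 ± 0.13). The cDC2, mature dendritic cell, plasmacytoid dendritic cell and neutrophil lists had no calls.

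Interferon lists were read next. The HIN-200 family of DNA sensors had positive differences for all 12 genes with a median of 0.57 and summed normalized counts of 11419, 10055 and 10723 against 5655 to 8839. The sums did not overlap, but by the median over the list isotype replicate 2 (0.43 above the mean of the others on the log2 scale) lay below CC079F1 aPD1 replicate 2 (0.54). Ifi204 was called, at 1987, 1607 and 1767 against 928 to 1461 (log2 difference 0.58 ± 0.14, DESeq2 adjusted p = 0.00777). Against CC036F1 alone 8 of the 12 genes were called higher, beside 4.98% of all genes, and against CC079F1 alone none. Without CC080F1 isotype replicate 1 the difference of Ifi204 was 0.46 and no gene of the list was called. The antiviral list had 21 of 22 genes with positive differences and a median of 0.16, and Irf7 was its only call. The list of guanylate-binding proteins and immunity-related GTPases had 0 calls of 18 with a median of 0.03. MHC class I presentation had 0 calls of 11, with 8 negative differences and a median of -0.14.

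The MHC class II list had positive differences for all 11 genes and a median of 0.77, with 1 call. Ciita, the master activator of class II genes, had 659, 190 and 489 normalized counts against 103 to 346 (median 236). Isotype replicate 2 lay inside the range of the others, and the log2 difference was 1.25 ± 0.33 (DESeq2 adjusted p = 0.0203, edgeR 0.16). Without isotype replicate 1 the difference was 0.57. Leaving out that tumor, CC036F1 isotype replicate 2, CC036F1 aPD1 replicate 2, CC079F1 isotype replicate 1 or CC079F1 isotype replicate 2 ended the Ciita call. Summed class II counts were 47825, 21604 and 23786 against 10388 to 30225, so only isotype replicate 1 was above the other lines. In the IFN-gamma signature list 18 of 22 genes were positive with a median of 0.42, and Ciita was again the only call. Its summed normalized counts were 50090, 28397 and 32501 against 20820 to 51534, so the CC080F1 tumors lay within the other lines.

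T cell genes differed among the 3 CC080F1 tumors. All 13 genes of the receptor and coreceptor list had positive differences, with a median of 0.88, and 2 were called. Trac, the constant region of the T cell receptor alpha chain, had 164, 90.3 and 227 normalized counts against 28.3 to 95.9, and differed by 1.41 ± 0.33 (DESeq2 adjusted p = 0.00367, edgeR 0.095). Lck, the kinase of the T cell receptor, had 294, 104 and 363 against 62.1 to 202, and differed by 1.25 ± 0.30 (DESeq2 adjusted p = 0.00504). In both, isotype replicate 2 lay within the other lines and the remaining CC080F1 tumors above them. Summed over the list the 3 tumors had 1749, 589 and 2239 normalized counts, against 421 to 1151 in the others. Without isotype replicate 2, 6 of the 13 genes were called. Without isotype replicate 1 or without aPD1 replicate 1, none was. In aPD1 replicate 1 the highest T cell sum came with the highest lymph node stroma and B cell sums, 729 and 7535 normalized counts. Isotype replicate 1, with a T cell sum of 1749, had only 12.1 and 1140. Among the other lines CC079F1 aPD1 replicate 1 had both the highest T cell sum, 1151, and the highest lymph node sum, 485. CC036F1 isotype replicate 1, with a T cell sum of 1098, had a lymph node sum of 30.7. The part of lymph node tissue or B cells in the T cell counts was not tested. The CD8 and cytotoxic effector list had 0 calls of 12, the list of CD4 and regulatory T cells 0 of 9, and the checkpoint list 0 of 8.

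The NK cell list had 1 call of 11. Klre1, an NK lectin-like receptor, had 84.1, 63.2 and 39.7 normalized counts against 11.5 to 37.6, and its log2 difference was 1.63 ± 0.41 (DESeq2 adjusted p = 0.0122, edgeR 0.157). Its call was lost without CC080F1 isotype replicate 1 (1.30) or isotype replicate 2 (1.61). The summed NK counts of 2286, 1711 and 1746 overlapped the 1405 to 1910 of the others. Endothelial and fibroblast lists had no call against both lines together. Against CC036F1 alone 9 of 10 endothelial genes were higher and 1 lower, and 6 of 12 fibroblast genes were higher, beside 4.98% higher and 3.19% lower of all genes in that contrast. Against CC079F1 alone none was called in either list. The summed endothelial counts were 7495, 8685 and 6983 in CC080F1, 3158 to 5054 in CC036F1 and 6417 to 7391 in CC079F1. Called genes named after their values were seen included 3 that endothelial cells express, Rasip1 (0.99 ± 0.28), Bcl6b (0.93 ± 0.26) and S1pr1 (0.91 ± 0.26), and none of these was called against CC079F1 alone. The cell cycle list had 0 calls of 14 and a median of 0.04.

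**Figure D3:**
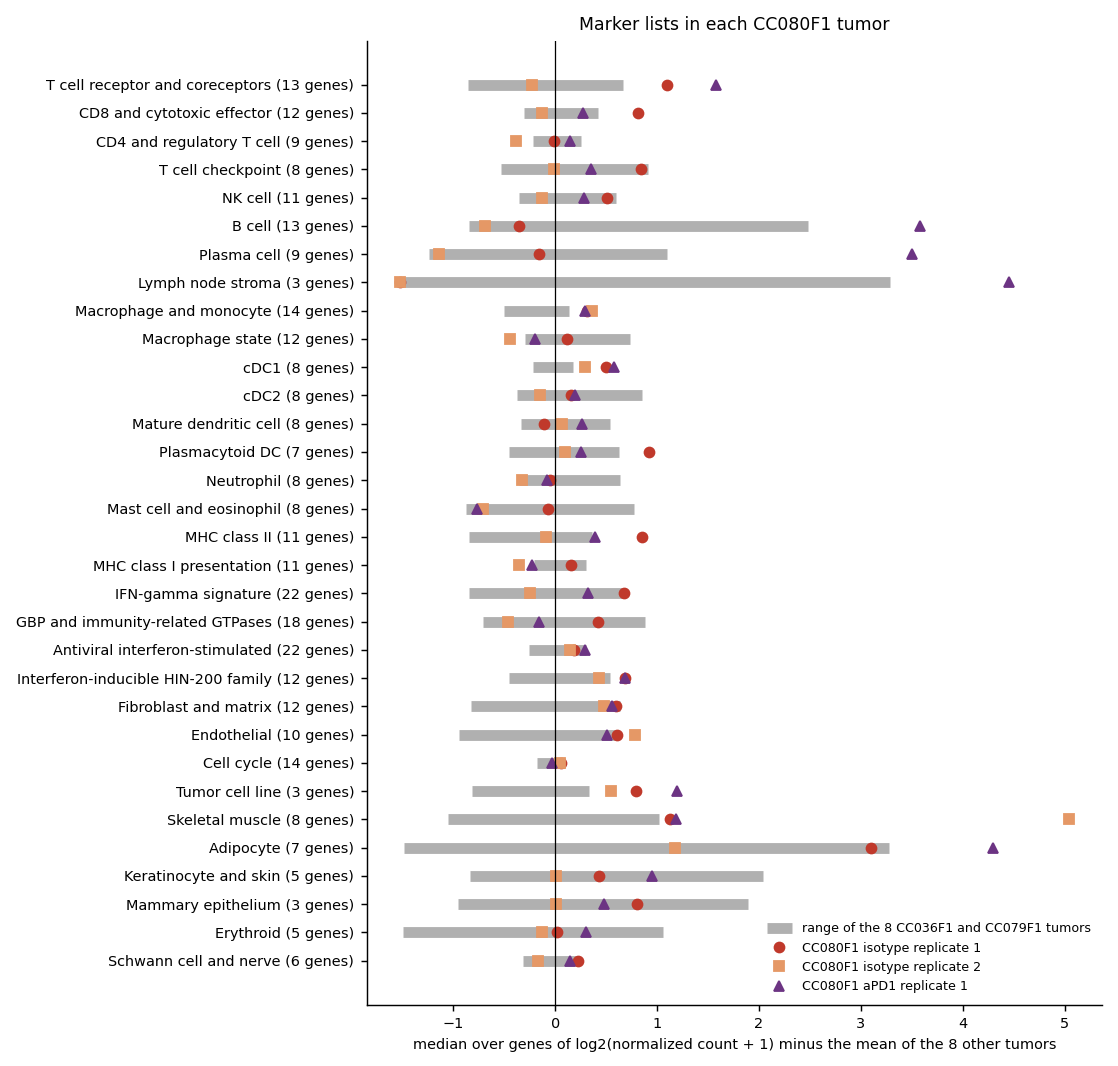
Each row is a marker list, and each symbol gives, for 1 CC080F1 tumor, the median over the tested genes of log2(normalized count + 1) minus the mean of the 8 other tumors (circle isotype replicate 1, square isotype replicate 2, triangle aPD1 replicate 1), with the grey bar spanning the 8 other tumors. The 3 tumors sit together above the bar for macrophage and monocyte and cDC1 genes, but part from each other for T cell, B cell, plasma cell, lymph node, skeletal muscle and adipocyte genes.

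Among the lower genes, 3 groups recurred, and the lists used to describe them were drawn up after their values were seen, so their counts are descriptions. The cholesterol list holds enzymes that make cholesterol from acetyl-CoA and regulators of the pathway. Of 22 tested genes 5 were lower and 0 higher, beside 0.256% of all genes tested that were lower. The median difference was -0.23, and 20 of the 22 were negative. The 5 were Hmgcs1, Sqle, Msmo1, Fdft1 and Lss. Sqle, the squalene epoxidase, had 3130, 2805 and 2931 normalized counts against 3642 to 5019 (median 4334). The groups were clear of each other, and the log2 difference was -0.57 ± 0.09 (DESeq2 adjusted p = 8.17e-07, edgeR 0.0081). Hmgcs1, the HMG-CoA synthase, had 4343, 3850 and 4491 against 5155 to 8795 (median 6268), with a difference of -0.61 ± 0.12 (DESeq2 adjusted p = 0.000229, edgeR 0.0415). Msmo1, a sterol demethylating oxidase, differed by -0.52 ± 0.11 (DESeq2 adjusted p = 0.000388). Sqle, Hmgcs1 and Msmo1 stayed called without any 1 tumor, while the number of calls in the list was 3 without isotype replicate 1. Srebf2, the transcription factor that drives the pathway, differed by -0.16 ± 0.08 and was not called. Summed over the list, CC080F1 tumors had 49615, 47336 and 50355 normalized counts and the others 53918 to 71958. Against CC036F1 alone 6 genes of the list were lower, beside 3.19% of all genes, and against CC079F1 alone 5, beside 0.257%.

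The circadian clock list had 5 lower and 0 higher genes of 18, beside 0.256% of all genes tested that were lower. Its median was -0.44, and edgeR called 1 of its genes lower. Against CC036F1 alone 9 genes of the list were lower and 0 higher, beside 3.19% of all genes that were lower. Against CC079F1 alone 5 were lower and 1 higher, beside 0.257% lower and 0.558% higher of all genes. Per2, a repressor of the clock, had 148, 56.4 and 118 normalized counts against 170 to 330 (median 263). The 3 CC080F1 values were the lowest of the 11, and the difference was -1.22 ± 0.26 (DESeq2 adjusted p = 0.00089, edgeR 0.108). Tef, a transcription factor of the clock output, had 1885, 1740 and 1662 against 2081 to 3299 (median 2695). It did not overlap, and its difference was -0.63 ± 0.11 (DESeq2 adjusted p = 4.56e-06, edgeR 0.0105). Per3, Cry1 and Cry2, further repressors, differed by -0.75 ± 0.21, -0.67 ± 0.15 and -0.49 ± 0.13, and Per3 and Cry1 overlapped the other lines. Arntl, the activator that acts opposite to them, was at 871, 792 and 1138 against 542 to 895 and was not called (0.46 ± 0.16, DESeq2 adjusted p = 0.206). Nr1d1, another repressor, was at -0.02 ± 0.18. The number of clock genes called fell to 2 without isotype replicate 1, 3 without isotype replicate 2, 2 without aPD1 replicate 1 and 3 without CC036F1 aPD1 replicate 1. Without CC036F1 isotype replicate 2, 3 were lower and 1 was higher. The clock list summed to 18569, 16404 and 17267 normalized counts against 18332 to 25538, and isotype replicate 1 lay within the other lines. The sources used here do not give the time of day at which each tumor was taken.

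The third group holds genes induced when amino acids are short, through the transcription factor Atf4. All 15 genes had negative differences with a median of -0.46. Of these, 3 were called lower, beside 0.256% of all genes tested. No gene of the list was called by edgeR or by DESeq2 in isotype tumors only. Chac1, which breaks down glutathione, had 309, 187 and 224 normalized counts against 310 to 828 (median 499). Isotype replicate 1 lay directly below the lowest of the others, and the difference was -0.98 ± 0.27 (DESeq2 adjusted p = 0.0302, edgeR 0.268). Sesn2, a leucine-sensing inhibitor of mTORC1, had 847, 770 and 735 against 873 to 1538 (median 1220), and differed by -0.58 ± 0.14 (DESeq2 adjusted p = 0.0113, edgeR 0.146). Mthfd1l, a mitochondrial folate enzyme, differed by -0.46 ± 0.11. Atf4 itself was at -0.28 ± 0.12 and was not called. Against CC036F1 alone 10 of the 15 genes were lower, beside 3.19% of all genes, and against CC079F1 alone none was called, beside 0.257%. The summed normalized counts were 74943, 66904 and 64018 against 67013 to 101930, so isotype replicate 1 lay within the other lines. No gene of the list was called without isotype replicate 2 or without aPD1 replicate 1, where Sesn2 was at -0.59 and -0.41 and Chac1 at -0.87 and -0.77. The Chac1 call was also lost without CC036F1 isotype replicate 1, CC036F1 isotype replicate 2 or CC036F1 aPD1 replicate 1.

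**Figure D4:**
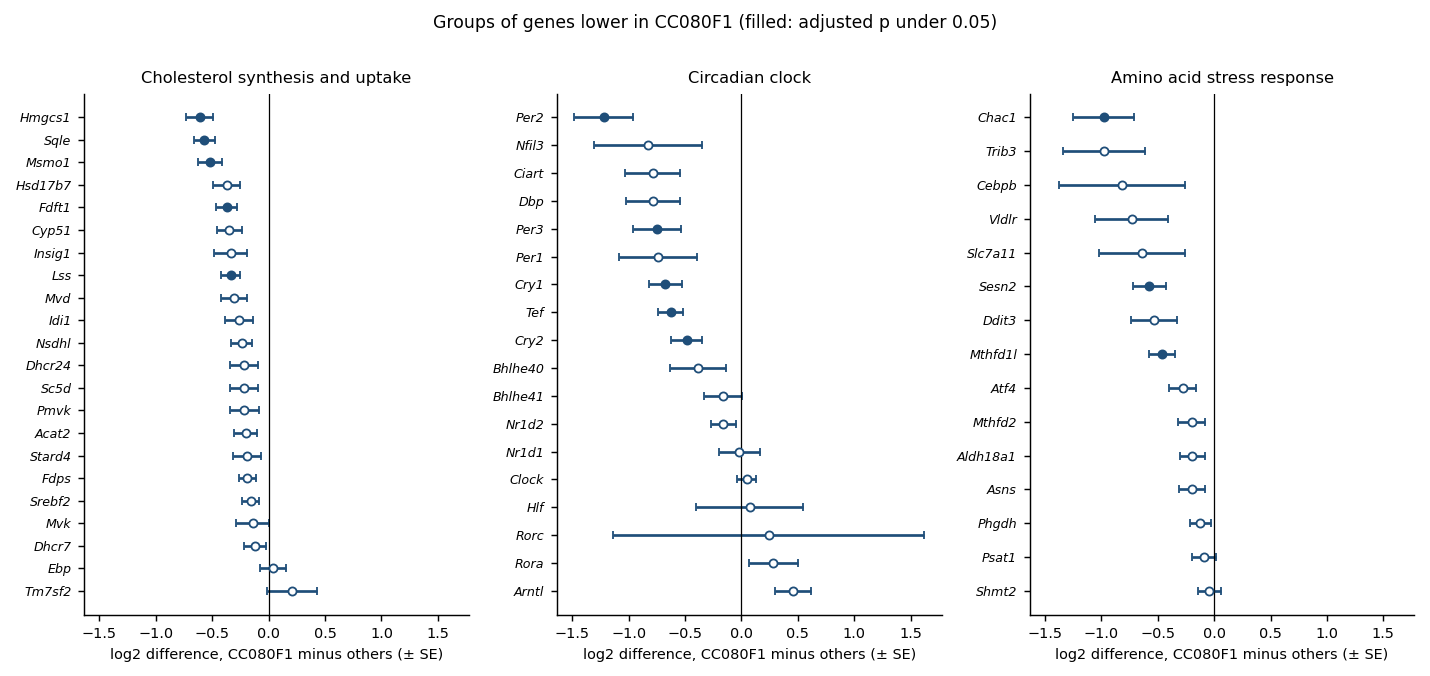
Log2 difference (horizontal axis, points ± SE) of CC080F1 from the 8 other tumors for the tested genes of the cholesterol, circadian clock and amino acid stress lists, with filled points for genes at a DESeq2 adjusted p under 0.05. Points lie left of 0 for 20 of 22, 13 of 18 and 15 of 15 genes, and the filled points number 5, 5 and 3.

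Sequences recognized by factors that are known to act on these groups were looked for near the start sites, and the stretches that hold one are shown because these genes were lower together. The windows ran from 250 bases before to 50 bases after each start site, with sequence from RefSeq on GRCm38.p6, and both strands were searched. A gene could have more than 1 window. The percentages below are per window, whereas called genes were counted per gene, so they cannot be compared directly. The E-box CACGTG was present in 7.15% of 32851 windows and in 2 of the 4 called clock genes that had a window. The D-box TTATGTAA was in 0.938% of windows and in 1 of these 4 genes. The sterol element TCACNCCAC was in 1.24% of windows and in 1 of the 3 called cholesterol genes with a window. The amino acid response element TGATGNAA was in 3.97% of windows and in 1 of the 3 called genes of its list. Each stretch below is written 5′ to 3′ with the match in capitals, and they lie at chr10:85185099-85185124 (minus strand), chr15:81802536-81802561 (plus), chr4:151044853-151044880 (minus), chr13:119690204-119690232 (plus) and chr2:119351039-119351066 (minus).
Cry1, E-box: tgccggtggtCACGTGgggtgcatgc
Tef, E-box: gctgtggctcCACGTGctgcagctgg
Per3, D-box: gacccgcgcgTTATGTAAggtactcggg
Hmgcs1, sterol element: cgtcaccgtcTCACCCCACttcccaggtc
Chac1, amino acid response element: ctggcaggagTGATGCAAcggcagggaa
The first base of the match lies 60 (Cry1), 127 (Tef), 205 (Per3), 137 (Hmgcs1) and 193 (Chac1) bases before the start site. Per3 has a further D-box in its window, and Tef a further E-box at another of its start sites. A match describes the letters only, and binding was not measured.

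The last question was how the 3 CC080F1 tumors differed from each other, which is a description because aPD1 was given to 1 of them. The isotype pair was the least alike of the replicate pairs. Of 11820 genes that averaged 100 or more normalized counts in the pair, 43 were over 4-fold apart, against 24, 22, 10 and 16 in the 4 pairs of the other lines. Between aPD1 replicate 1 and the isotype tumors, 31 (isotype replicate 1) and 61 (isotype replicate 2) genes were over 4-fold apart. The smallest number among the CC080F1 pairs was thus between tumors given different antibodies.

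Isotype replicate 2 was set apart by skeletal muscle. The genes furthest above the mean of the other CC080F1 tumors were Mybpc2, Myh4, Atp2a1, Ckm and Acta1, which encode proteins of the fast muscle fiber, by 6.01, 5.79, 5.25, 4.80 and 4.79 on the scale of log2(normalized count + 1). Myh4, a fast myosin heavy chain, had 29.98, 2162 and 48 normalized counts in the 3 tumors. Ckm, the muscle creatine kinase, had 35.8, 673 and 14.9. The muscle list summed to 306, 8184 and 395 normalized counts in CC080F1 and 48.8 to 455 in the others, so only isotype replicate 2 was above them. The list had 2 calls of 8 (Atp2a1 and Ckm), and without isotype replicate 2 it had none. The genes furthest below in this tumor were Cd3g, Igkc, Ighg1, Jchain and Gm37376. Cd3g, a chain of the T cell receptor complex, had 189, 0 and 151 normalized counts, and the shallow library of isotype replicate 2 allows up to 6.77 normalized counts at a floor of 3 counts.

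In isotype replicate 1 the genes furthest above the mean of the other CC080F1 tumors were Gm37376, Cd3g, Rsc1a1, Cd8a and Gm43302. Cd3g and Cd8a were low in isotype replicate 2, and the T cell list as a whole was higher in aPD1 replicate 1. Cd8a, the coreceptor of cytotoxic T cells, had 451, 54.2 and 300 normalized counts against 34.7 to 230 in the other lines. The CC080F1 tumors thus ran from within to well above that range, and Cd8a was not called (log2 difference 1.54 ± 0.66, DESeq2 adjusted p = 0.407). The 5 furthest below were Pgam1-ps2, Xirp2, Ighg1, Ms4a1 and Myh2.

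aPD1 replicate 1 was set apart by B cell and plasma cell genes. Ighg1, Igkc, Jchain, Ighd and Cd79a were furthest above the isotype tumors, by 10.76, 9.15, 7.78, 6.10 and 5.57 on the scale of log2(normalized count + 1). Ighg1, the constant region of an IgG heavy chain, had 0.967, 0 and 2429 normalized counts, against 0 to 32.0 in the other lines. Igkc, the kappa light chain constant region, had 9.19, 0 and 1811. The B cell list summed to 1140, 1300 and 7535 normalized counts, and to 655 to 2952 in the others, whose highest was CC079F1 aPD1 replicate 1. Lymph node genes moved with it: the list summed to 12.1, 4.51 and 729 in CC080F1 and to 485 in CC079F1 aPD1 replicate 1, while the other 7 had 3.51 to 30.7. Their part in the B cell counts was not tested. No B cell, plasma cell or lymph node gene was called by DESeq2 against the 8 tumors together or against CC079F1 alone, and edgeR called Ighg1. Against CC036F1 alone 5 B cell genes and 1 plasma cell gene were called higher, beside 4.98% of all genes tested. The genes furthest below in aPD1 replicate 1 were Gm49388, Gm37376, Rsc1a1, Ckm and Mybpc2. Adipocyte genes summed to 1578, 657 and 1700 in CC080F1, above the 120 to 175 of CC036F1 and inside the 377 to 2434 of CC079F1.

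**Figure D5:**
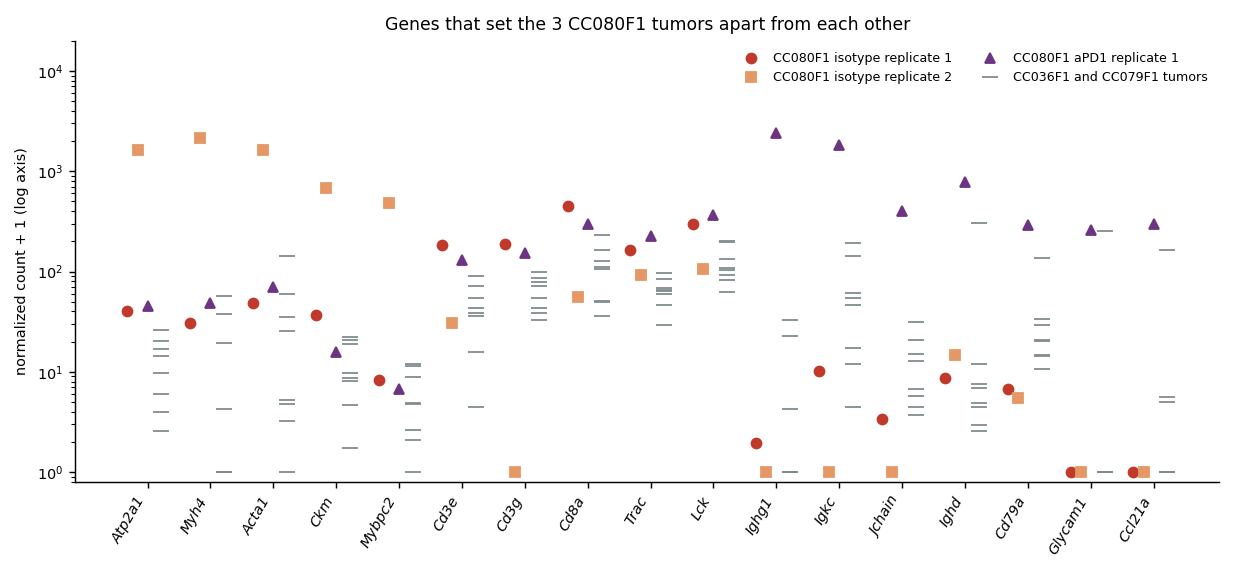
Normalized count + 1 (log axis) of 17 skeletal muscle, T cell, B cell, plasma cell and lymph node genes in the 3 CC080F1 tumors (circle isotype replicate 1, square isotype replicate 2, triangle aPD1 replicate 1) and in the 8 other tumors (grey dashes). The square stands far above for muscle genes (Myh4 at 2162 normalized counts) and low for Cd3g and Cd8a, and the triangle stands above all others for Ighg1 (2429) and Igkc (1811).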

How the data were processed

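RNA of frozen tumors was extracted with RNeasy, poly(A) libraries were made with the KAPA mRNA HyperPrep Kit and paired reads of 100 bases were sequenced. The authors aligned the reads with Bowtie 1.2.3 to transcriptomes of the founder strains built on GRCm38 (mm10) and estimated the expected counts per gene with gbrs, which splits reads shared between genes or haplotypes. The deposited expected counts are not scaled for depth, and 16.9% of the values were not whole, so they were rounded, which moved no library total of the 11 tumors by more than 38 counts. Whether counting used strand is not given in the sources used here. Names and coordinates came from GENCODE vM21 (26681 of 26869 genes matched).

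Tumors were grouped by host genotype and antibody from the labels, while the non-responder class came from the study's text. Genes with at least 5 counts summed over the 11 tumors (24552) entered a fit in R 4.3.3 with antibody and host as terms. DESeq2 1.42.0 gave a two-sided Wald p per gene, adjusted by Benjamini-Hochberg over the genes left by its default filters. Of the 24552 genes, 18777 received an adjusted p. DESeq2 dropped and imputed no sample. In this fit the difference between CC036F1 and CC079F1 is part of the spread, and single lines were compared in a fit with line as a 3-level term. There 17888 genes (against CC036F1) and 24552 genes (against CC079F1) received an adjusted p, so the shares called rest on unlike sets of genes. edgeR 4.0.16 (quasi-likelihood, TMM) was the alternative tool. Lists were described by counts and medians, without a set test, and tumors within CC080F1 without a test. In data simulated for this comparison over 24552 genes, the changed genes all had a mean of at least 100 normalized counts. Of these changes, DESeq2 recovered 92% at 2-fold and 98% at 4-fold, with 18.1% of its calls on unchanged genes. The same values for edgeR were 88% and 98%, with 6.06% of its calls on unchanged genes. Recovery of changes in weaker genes was not tested.

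Named genes were the 12 largest differences in each direction among calls with a mean of at least 100 normalized counts and no overlap between the groups, leaving out predicted genes and pseudogenes, with the genes of the on and off rule, the neighbor runs, the tumor differences (5 above and 5 below per tumor) and the lists. The tumors compared, the lists and the tests were chosen with earlier results of these data known. The cholesterol, clock and amino acid lists were added after their values were seen, and some genes of the cholesterol pathway are not reported here. No replicate pair agreed within sampling noise (chi-square per degree of freedom 136 in the CC080F1 isotype pair, 9.73 to 53.1 in the others), so each library was counted as its own sample. The ± SE values come from the DESeq2 fit and include the spread between tumors, while floors cover counting error only. Other alternatives were no filter, at least 10 counts in 3 tumors, TMM factors, isotype tumors only, deep libraries only, depth as a term, line as a term, a replicate block and leaving out each tumor.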

Additional observations from a re-analysis of the deposited data

Results flagged for a closer look

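Values were checked for a tumor far from the rest, within 1 line (4 tumors) or within CC036F1 and CC079F1 together (8 tumors). The check covered 72 sets, and chance alone meets it in about 1 in 20 sets. Sets of 8 also hold the difference between these lines. This check picked out 2 values, both in the lines set against CC080F1. Per2 in CC036F1 isotype replicate 1 was at 190 normalized counts, the lowest of the 4 CC036F1 tumors, the nearest of which was at 258. All 3 CC080F1 tumors were still below it, at 148, 56.4 and 118. Hmgcs1 in CC079F1 isotype replicate 1 was at 8795 normalized counts, the highest of the 8 tumors of CC036F1 and CC079F1, with the nearest at 6647. Both genes stayed called without the tumor concerned.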

How the results depend on the processing

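For the 195 host genes, edgeR called 64, edgeR on isotype tumors only (added after seeing the data) 53, line as a 3-level term 593 (193 of the 195 among them) and the deep libraries only 118. No filter, the stricter filter, TMM factors, isotype tumors only and depth as a term stayed within 1.5 times of the 195, but isotype tumors alone gave 161 genes, with 99 of them among the 195. Leaving out 1 tumor gave 90 (CC080F1 aPD1 replicate 1) to 275 (CC079F1 aPD1 replicate 1), with 125 when either isotype tumor of CC080F1 (replicate 1 or 2) was left out. Against CC036F1 the range was 736 (without CC080F1 aPD1 replicate 1) to 1779, beside 1460 with all tumors. Against CC079F1 edgeR called 79 beside 200, and leaving out 1 tumor gave 147 to 281. At 50 or more against 3 or fewer normalized counts, 0 genes were on or off, beside 2. With edgeR's calls 2 neighbor runs were found, beside 5. In the CC080F1 isotype pair 234 genes were over 2-fold and 22 over 8-fold apart, beside 43 over 4-fold. Of the marker list genes 11 were called, and edgeR called 6, depth as a term 18, the deep libraries 20, and leaving out 1 tumor 9 to 26, the highest without CC079F1 aPD1 replicate 1 and 18 without CC079F1 aPD1 replicate 2. No difference of the 24 named genes turned sign under any alternative run, but their choice for lack of overlap made a change of sign unlikely beforehand. Of the 24, edgeR called 16, and 10 were not called in the deep libraries only. Over the fits that left out 1 tumor, 35 of 264 calls of these genes were lost. The causes of these shifts were not tested.

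Replicate numbers did not pair the samples (correlation of deviations -0.18 to 0.19 between groups), and with a replicate block 175 genes were called, 145 of them among the 195. The block ended the calls of Chac1, Fam162a and Clybl. With 3 tumors of 1 line, 1 of them given aPD1 and 1 sequenced to 15276128 counts, line, single tumors and, for aPD1, the antibody within CC080F1 cannot be told apart in these data, and low genes at 0 in the shallow library were limited by depth.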
